A study of Mus musculus with 3 samples.

Results

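The genes described here are the matrix metalloproteinases (Mmp), the ADAM and ADAMTS proteases and the tissue inhibitors of metalloproteinases (Timp) of the mouse. They were chosen by gene symbol, as those probe sets whose single annotated symbol is Mmp, Adam, Adamts or Timp followed by a number, and they came to 77 of the 22180 genes measured: 22 Mmp, 33 Adam, 18 Adamts and 4 Timp genes. Adam34, Adamts2 and Mmp15, also of these families, had no probe set under a single symbol and were not analysed here. RNA was read on 3 whole-transcript arrays, with 1 array per group. FULA 1 is a cultured line of mouse lung adenocarcinoma, kept in DMEM with 10% serum. The urethane lung came from FVB mice, an inbred strain, 1 week after an intraperitoneal injection of urethane, a carcinogen that gives lung adenomas in mice. The saline lung came from FVB mice that received saline instead. The labels give neither the number of mice pooled on a lung array nor their age, nor the interval between saline and sampling, and they do not say which strain gave rise to the line.

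Metalloproteinases cut proteins with a zinc ion held in their active site. They are made as inactive precursors, and many are switched on when furin-like proteases or other metalloproteinases remove the propeptide. The MMPs cut collagens, elastin, laminins and other matrix proteins. The ADAMs sit in the cell membrane and release the outer parts of growth factors, cytokines and adhesion proteins, while the ADAMTS proteases are secreted and act on proteoglycans, procollagens and microfibrils. The TIMPs bind the active site and block it. In the lung these genes serve alveolar development and matrix turnover, and they are studied in emphysema, fibrosis and tumour invasion.

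Each level below is a log2 signal after quantile normalization of the arrays, given with its percentile rank among all probe sets of the same array; the rank does not depend on how an array was scaled. Signals of different genes come from different probes and were not compared as amounts of RNA. A gene was counted as above background on an array where its level passed the 95th percentile of 1105 olfactory receptor genes, a family transcribed mainly in the nose; this mark stood at 1.96 on FULA 1, 2.44 on urethane lung and 2.46 on saline lung. Where the lower of the levels compared was not above the mark, the mark took its place and the difference is a bound. A gene counted as called at a difference or bound of at least 2-fold, which is 1 on the log2 scale. With 1 array per group no test was possible, no difference could be set against a spread between replicates, and the values describe these 3 RNA samples, not the conditions they stand for.

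The columns as deposited did not lie on one scale, with medians of 4.96 on FULA 1, 1.22 on urethane lung and 0.08 on saline lung. The lung arrays held many ties, where up to 1385 probe sets on urethane lung and up to 1250 on saline lung had one and the same value. On FULA 1 the most was 112. The labels were checked against cell type markers. All 4 general epithelial markers were above the mark on every array, among them the keratin Krt8, at percentile rank 99.7 on FULA 1, 93.4 on urethane lung and 92.7 on saline lung. The epithelial adhesion protein Epcam stood lower in the line, at rank 74.7 on FULA 1, 87.9 on urethane lung and 81.2 on saline lung. The 4 alveolar type II and 4 endothelial markers all exceeded percentile rank 94 on both lungs, and none of the 8 exceeded 58.1 on FULA 1. Other lists held markers that stood high in the line. Against saline lung the mesothelial Msln was called higher, at rank 96.7 on FULA 1, and 2 of the 3 mesothelial markers lower. Of 4 alveolar macrophage markers, Mrc1 was called higher, at rank 91.7 on FULA 1, and 2 were called lower. Pdgfra, a fibroblast marker, had rank 81.5 on FULA 1, 91.3 on urethane lung and 84.4 on saline lung. In whole lung, fewer cells of a type and less RNA per cell cannot be told apart.

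Most of the family was at background. Of the 77 genes, 33 were above the mark on at least 1 array and 44 on none, whereas 66.6% of all genes were above it on at least 1 array. On FULA 1, 28 members were above the mark, where the share of all genes was 58.2%. On urethane lung it was 25 members, with 48.9% of all genes, and on saline lung 25 members, with 49.5% of all genes. Above the mark on all 3 arrays were 20 members, with 39.5% of all genes. By family, 11 of the 22 Mmp, 9 of the 33 Adam, 10 of the 18 Adamts and 3 of the 4 Timp genes were above the mark somewhere.

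**Figure D1:**
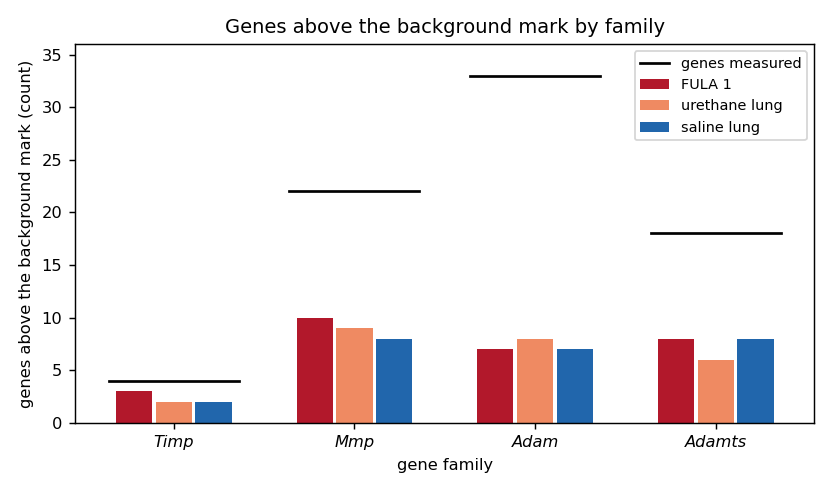
Number of genes above the background mark (vertical axis, count) in the Timp, Mmp, Adam and Adamts families on the FULA 1, urethane lung and saline lung arrays; the black line gives the genes measured in the family. Only 7 to 8 of the 33 Adam genes were above the mark on any single array, against 8 to 10 of the 22 Mmp genes.

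The 44 set aside came from all 4 families. Of the 21 Adam genes outside the lists of ADAMs known from tissues other than testis, 20 were not above the mark on any array; among them are Adam2, Adam3 and Adam7, which act in sperm or the epididymis, and the exception, Adam1a, passed it on urethane lung alone by 0.0069. Mmp12, the elastase of macrophages, was at background on all 3 arrays. Also set aside were the collagenases Mmp1a, Mmp1b and Mmp8, the stromelysin Mmp3, the matrilysin Mmp7, the membrane-bound Mmp16 and Mmp25, and Mmp20, Mmp21 and Mmp27. From the other families the mark set aside Adam22, Adam23, Adam28, Adam33, Adamts3, Adamts5, Adamts7, Adamts8, Adamts13, Adamts16, Adamts18, Adamts20 and Timp4. On FULA 1 the closest to the mark on either side were Mmp9, above it by 0.0053, and Adamts7, below it by 0.012, so which side such a gene falls on is not firm.

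Many of the genes at background are neighbours on a chromosome. From Mmp13 to Mmp7, 10 Mmp genes lie next to each other on chromosome 9, and 2 of these 10, Mmp13 and Mmp10, were above the mark on at least 1 array. On chromosome 8, Adam9 lies beside Adam18, Adam3, Adam5 and Adam32, and of these 5 genes Adam9 alone was above the mark, on all 3 arrays. Further runs of 4 and of 3 Adam genes on chromosome 8 had none above it. The neighbour order is that of the RefSeq table for assembly GRCm38.p6.

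The sequence just before a gene's start is where general and inducible factors bind. RefSeq promoter windows (GRCm38.p6) were at hand for 47 of the 77 members, and the 250 bases before each start were searched on both strands for TGANTCA, the letters bound by the AP-1 factors, for TATAAA, the TATA box, and for GGGCGG, the GC box. In the chromosome 9 run, 8 of 10 genes held TGANTCA and 7 of 10 held TATAAA in at least 1 window, against 7.82% and 14.3% of the 27025 genes with a window. No gene of the run held a GC box, which 35.4% of all genes held. Windows of Mmp13 and Mmp10, the pair above the mark, and of Mmp3, one of the 8 genes of the run at background, are shown to compare their letters, all on the plus strand of chromosome 9, at chr9:7272264-7272513, chr9:7502092-7502341 and chr9:7445572-7445821; capitals mark the TGANTCA and TATAAA letters.
Mmp13: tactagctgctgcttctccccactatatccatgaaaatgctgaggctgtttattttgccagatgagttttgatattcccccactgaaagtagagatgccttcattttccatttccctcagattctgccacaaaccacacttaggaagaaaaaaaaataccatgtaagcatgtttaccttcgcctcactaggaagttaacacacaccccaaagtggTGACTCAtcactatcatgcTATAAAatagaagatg
Mmp10: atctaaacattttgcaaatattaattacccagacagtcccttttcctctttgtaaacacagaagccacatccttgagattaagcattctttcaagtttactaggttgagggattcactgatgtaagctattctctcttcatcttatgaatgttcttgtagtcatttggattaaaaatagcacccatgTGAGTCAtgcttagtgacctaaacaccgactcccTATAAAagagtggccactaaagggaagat
Mmp3: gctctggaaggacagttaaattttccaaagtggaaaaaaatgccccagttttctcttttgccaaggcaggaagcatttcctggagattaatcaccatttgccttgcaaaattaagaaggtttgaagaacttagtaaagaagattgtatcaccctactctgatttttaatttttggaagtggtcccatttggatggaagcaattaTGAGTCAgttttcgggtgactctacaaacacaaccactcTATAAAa
The AP-1 letters end 29 bases before the start in Mmp13, 57 in Mmp10 and 40 in Mmp3, and in each the TATAAA letters lie between them and the start. The TATAAA letters end 11 bases before the start in Mmp13, 24 in Mmp10 and 2 in Mmp3. The pair above the mark and Mmp3 at background thus held the same motifs in the same order, at different distances from the annotated start.

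GC boxes were more frequent among members above the mark. A GC box stood in 14 of the 21 members above the mark on at least 1 array that had a window, and in 4 of the 26 members above it on none. The dinucleotide CG occurred a median of 15 times (range 1 to 35) in members above the mark and 1 time (range 0 to 35) in members at background, taking the window with the most where a gene had several. The chromosome 9 run supplies 8 of those 26 genes at background. Over all 27025 genes with a window, 35.4% held a GC box and the median CG count was 6. All genes were not split by the mark, so whether this difference is particular to the family was not tested. Windows of Adam10, a sheddase called higher in FULA 1 below, and of Timp3, an inhibitor called lower, are shown from the plus strand of chromosomes 9 and 10, at chr9:70678732-70678981 and chr10:86300162-86300411; capitals mark GC box letters.
Adam10: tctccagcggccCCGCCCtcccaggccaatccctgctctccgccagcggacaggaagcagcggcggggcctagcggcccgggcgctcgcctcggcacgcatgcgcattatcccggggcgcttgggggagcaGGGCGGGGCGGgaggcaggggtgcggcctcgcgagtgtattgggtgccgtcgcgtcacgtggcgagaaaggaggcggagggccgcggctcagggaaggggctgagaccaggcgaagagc
Timp3: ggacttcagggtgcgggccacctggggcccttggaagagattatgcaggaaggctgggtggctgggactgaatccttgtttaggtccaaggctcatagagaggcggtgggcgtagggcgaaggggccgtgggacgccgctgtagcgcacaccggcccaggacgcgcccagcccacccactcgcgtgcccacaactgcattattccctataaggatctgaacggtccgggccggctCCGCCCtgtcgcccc
The Adam10 window held 3 GC boxes, of which a pair share 1 base, and the Timp3 window held 1. The match is a description of letters and says nothing of binding in these samples.

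Timp2 had the highest rank of all 77 members on each array. Timp2, a secreted inhibitor that also helps Mmp14 to activate Mmp2, had levels of 7.32 on FULA 1 (percentile rank 97.9), 6.997 on urethane lung (97.4) and 7.11 on saline lung (97.6). Its differences were 0.32 for FULA 1 minus urethane lung and 0.21 for FULA 1 minus saline lung, both under 2-fold, though with a common median they were 1.76 against urethane lung and 1.04 against saline lung. Timp3, which is held in the matrix and also blocks Adam17 and several ADAMTS proteases, had levels of 4.25 on FULA 1 (85.3), 6.65 on urethane lung (96.7) and 6.24 on saline lung (95.6). The line stood below both lungs, by 5.26-fold against urethane lung and 3.98-fold against saline lung. With each array shifted to a common median these calls were lost, at -0.65 against urethane lung and -0.67 against saline lung. Timp1, an inhibitor induced in injury and inflammation, had a level of 3.25 on FULA 1 (74.0), with 2.37 on urethane lung (57.7) and 2.35 on saline lung (57.2). Timp1 was above the mark on FULA 1 alone, higher by at least 0.81 against urethane lung and 0.79 against saline lung, which is under 2-fold as a bound. It passed 2-fold with a common median, at 1.69 against urethane lung and 1.73 against saline lung, and with FULA 1 quantiles, at 1.31 against urethane lung and 1.28 against saline lung. Timp4, known best from heart, was at background on all arrays, at 1.53 on FULA 1, 1.62 on urethane lung and 1.49 on saline lung.

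**Figure D2:**
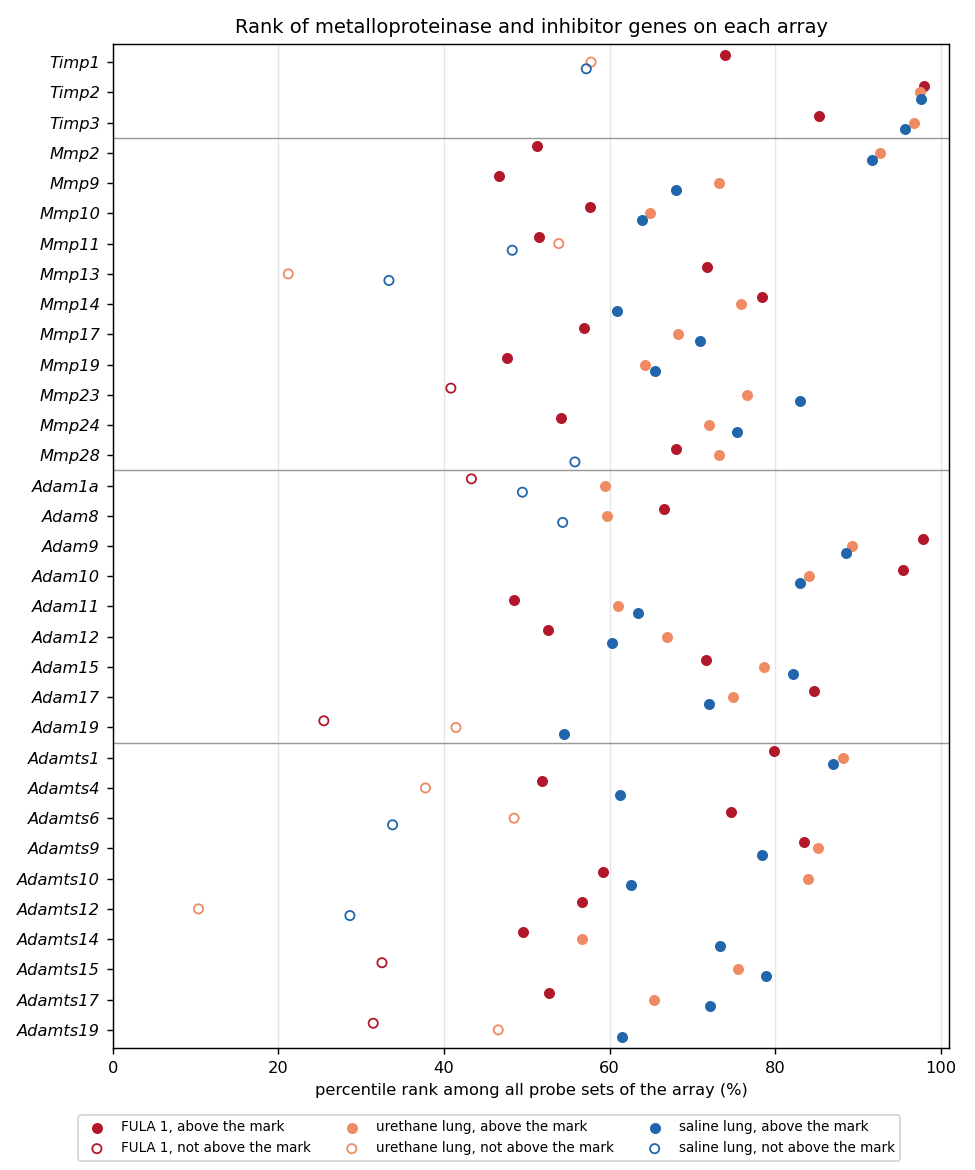
Percentile rank among all probe sets of an array (horizontal axis, percent) for the 33 genes above the background mark on at least 1 array, grouped as Timp, Mmp, Adam and Adamts genes; filled circles are above the mark of that array and open circles are not. Timp2 stands above rank 97 on all 3 arrays, Mmp2 and Timp3 stand lower on FULA 1 than on either lung, and Adam9 and Adam10 stand higher there.

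FULA 1 cells differed from the lungs in both directions. Against saline lung 4 of the 77 members were called higher and 6 lower, where the shares over all genes were 10.8% and 11.2%. Against urethane lung 2 were called higher and 6 lower, where the shares over all genes were 10.4% and 9.73%. Both comparisons share the FULA 1 array, so their calls are not independent of each other. The split between higher and lower depends on the scaling: against saline lung it was 11 and 3 with each array shifted to a common median, 2 and 8 after a lowess curve was subtracted, 7 and 13 with FULA 1 quantiles for every array, and 28 and 0 in the table as deposited, where the median of all genes itself was 4.80. Against urethane lung it was 9 and 3 with a common median, 2 and 7 after lowess, 6 and 10 with FULA 1 quantiles, and 28 and 0 as deposited. The counts over all genes swung likewise: against saline lung 6722 were higher and 1016 lower with a common median, and 1395 higher and 2757 lower after lowess, in place of 2401 and 2480. Against urethane lung they were 6782 and 900 with a common median, and 1359 and 2506 after lowess, in place of 2297 and 2159. Over all 77 members the median difference was -0.34 against saline lung, beside -0.11 over all genes, and -0.30 against urethane lung, beside -0.08 over all genes.

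Of the 77 members, 32 had their higher level above the mark against saline lung and 30 against urethane lung, and no size was given to the rest. A gene without a size cannot be called. With a size against saline lung, 4 and 6 of 32 members were called higher and lower, beside 2401 and 2480 of 14162 genes. Against urethane lung it was 2 and 6 of 30 members, beside 2297 and 2159 of 13883 genes. Nearest to the 2-fold line against saline lung were Adam17 and Mmp14 inside it and Adamts17 at -0.95 and Mmp9 outside it. Against urethane lung Mmp9 and Adamts15 were nearest inside, and Adamts1 at -0.90 and Mmp24 at -0.88 nearest outside. With the mark at the 99th percentile the calls of Adam17, Mmp14, Adamts14 and Mmp24 against saline lung, and those of Mmp9, Mmp23 and Adamts15 against urethane lung, were lost. With a common median 7 members not called here passed 2-fold higher against saline lung, namely Timp1, Timp2, Mmp13, Mmp28, Adam8, Adamts6 and Adamts9, and 7 against urethane lung, namely Timp1, Timp2, Mmp13, Mmp14, Adam17, Adamts6 and Adamts9. With FULA 1 quantiles Timp1, Mmp13 and Adamts6 passed it higher against both lungs, and Adam17 against urethane lung as well. Under that scaling Mmp9, Mmp17, Mmp19, Adam11, Adam15, Adamts17 and Adamts19 passed 2-fold lower against saline lung. Against urethane lung Mmp19, Mmp24, Adam12 and Adamts1 did so.

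Of the gelatinases, Mmp2 had the lowest difference of any member in both comparisons. Mmp2, the gelatinase of fibroblasts and other stromal cells, had levels of 2.13 on FULA 1 (percentile rank 51.2), 5.42 on urethane lung (92.6) and 5.23 on saline lung (91.7). The line lay just above background while both lungs were high, and under the scalings tried, leaving out the table as deposited, the line stayed over 2-fold lower. The differences after quantile normalization were -3.30 (9.84-fold) against urethane lung and -3.10 (8.59-fold) against saline lung. Mmp9, the gelatinase stored in neutrophil granules, had levels of 1.97 on FULA 1 (46.6), 3.21 on urethane lung (73.2) and 2.89 on saline lung (68.1). Its difference was -1.24 against urethane lung, a call that was lost with a common median, at -0.98, and -0.92 against saline lung, which is under 2-fold. The neutrophil markers, of which S100a8 and Csf3r are examples, were above the mark for 0 of 5 on FULA 1 and 3 of 5 on each lung, and their summed linear level was 12.6 on FULA 1, 53.8 on urethane lung and 75.4 on saline lung; their part in the Mmp9 difference was not tested. On urethane lung Mmp9 shared its deposited value with Mmp28, and 412 probe sets in all held this value.

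The membrane-type MMPs were split. Mmp14, or MT1-MMP, which cuts collagen at the cell surface and activates Mmp2, had levels of 3.59 on FULA 1 (percentile rank 78.4), 3.39 on urethane lung (75.8) and 2.53 on saline lung (60.9). Saline lung was the low one, just above the mark, and the line was higher by 1.06 against saline lung but by 0.19 against urethane lung. The call against saline lung was lost after lowess, at 0.65. Mmp24, or MT5-MMP, known from neurons, had levels of 2.23 on FULA 1, 3.12 on urethane lung and 3.36 on saline lung, with a difference of -0.88 against urethane lung and a call of -1.12 against saline lung, which was lost with a common median, at -0.55. A probe set annotated to Mmp24 and BC029722 together, kept out of the counts, did not show this call. It had 4.04 on FULA 1, 3.93 on urethane lung and 4.38 on saline lung. Mmp17, anchored by a lipid tail, had levels of 2.34 on FULA 1, 2.89 on urethane lung and 3.06 on saline lung, and both differences were under 2-fold. With FULA 1 quantiles Mmp17 passed 2-fold lower against saline lung, at -1.19. Mmp23, an MMP anchored through its amino end, had levels of 1.81 on FULA 1, 3.45 on urethane lung and 4.02 on saline lung. Mmp23 was at background in the line and was lower there, by at least 2.81-fold against urethane lung and at least 4.15-fold against saline lung. With the 99th percentile mark the difference from urethane lung was -0.90 as a bound, under 2-fold.

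No other MMP was called in either FULA 1 comparison after quantile normalization. Mmp13, the main interstitial collagenase of the mouse, had a level of 3.11 on FULA 1 (percentile rank 71.7), with 1.28 on urethane lung (21.2) and 1.62 on saline lung (33.3). It was above the mark in the line alone; the bounds, 0.66 against urethane lung and 0.64 against saline lung, fall short of 2-fold. Mmp13 passed it with a common median, at 1.47 against urethane lung and 1.51 against saline lung, and with FULA 1 quantiles, at 1.09 against urethane lung and 1.06 against saline lung. Mmp10, a stromelysin, ranged over the 3 arrays from 2.37 to 2.72, and Mmp19 from 2.001 to 2.75. Mmp11, the stromelysin of tumour stroma, was above the mark on FULA 1 alone as the mean of its 2 probe sets, at 2.14. On urethane lung 1 of the pair, at 2.83, was above the mark of 2.44. Mmp28, or epilysin, an MMP of epithelia, had levels of 2.88 on FULA 1, 3.21 on urethane lung and 2.29 on saline lung, and the last was at background.

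Among the ADAMs, the sheddases Adam9 and Adam10 were the members called higher in FULA 1 against both lungs, 2 of 77, where 8.86% of all genes were. Adam9, a membrane protease of many epithelia, had levels of 7.20 on FULA 1 (percentile rank 97.8), 4.80 on urethane lung (89.3) and 4.69 on saline lung (88.5). Both lungs were alike and the line was higher, by 5.28-fold against urethane lung and 5.69-fold against saline lung. Adam10, which cuts Notch receptors, E-cadherin and several EGF-family ligands, had levels of 6.17 on FULA 1 (95.3), 4.12 on urethane lung (84.1) and 4.01 on saline lung (83.0). The line was higher by 4.16-fold against urethane lung and 4.47-fold against saline lung. Adam17, which releases TNF and ligands of the EGF receptor, had levels of 4.18 on FULA 1 (84.6), 3.33 on urethane lung (74.9) and 3.13 on saline lung (72.0). Its difference was 0.86 against urethane lung, under 2-fold, and 1.06 against saline lung; the call against saline lung was lost after lowess, at 0.66. Of the 4 general epithelial markers, Krt8, Krt18 and Cdh1 were called higher in FULA 1 against both lungs, while Epcam differed by -1.28 against urethane lung, a call, and by -0.51 against saline lung. As deposited Epcam had 6.97 on FULA 1, 3.22 on urethane lung and 1.27 on saline lung. The column medians were 4.96, 1.22 and 0.08, so with a common median its call is lost. The summed linear level of the 4 markers, of which Krt8 was the largest term, was 1378 on FULA 1, 102 on urethane lung and 79.4 on saline lung. The part of the 4 markers in the result was not tested.

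The remaining ADAMs with a catalytic site were not called in either FULA 1 comparison after quantile normalization. Adam15, of endothelium and epithelium, had levels of 3.25 on FULA 1, 3.65 on urethane lung and 3.99 on saline lung, so the line was the lowest of the 3, but with a common median its differences were 0.65 against urethane lung and 0.44 against saline lung, and against saline lung it passed 2-fold lower after lowess, at -1.28, and with FULA 1 quantiles, at -1.05. Adam8, a protease of leukocytes, had levels of 2.81 on FULA 1, 2.47 on urethane lung and 2.24 on saline lung, the last at background. Adam12 ranged over the arrays from 2.17 to 2.84. Adam19, as the mean of its 2 probe sets, passed the mark on saline lung alone, at 2.56. The pair disagreed, with 3.58 and 1.55 on saline lung, and with 2.71 and 1.21 on urethane lung, where the mark was 2.44. When only the probe set of highest mean was used, Adam19 was past 2-fold lower in FULA 1 against saline lung, at -1.62. Adam11, a neural family member without a working active site, ranged from 2.03 to 2.63.

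**Figure D3:**
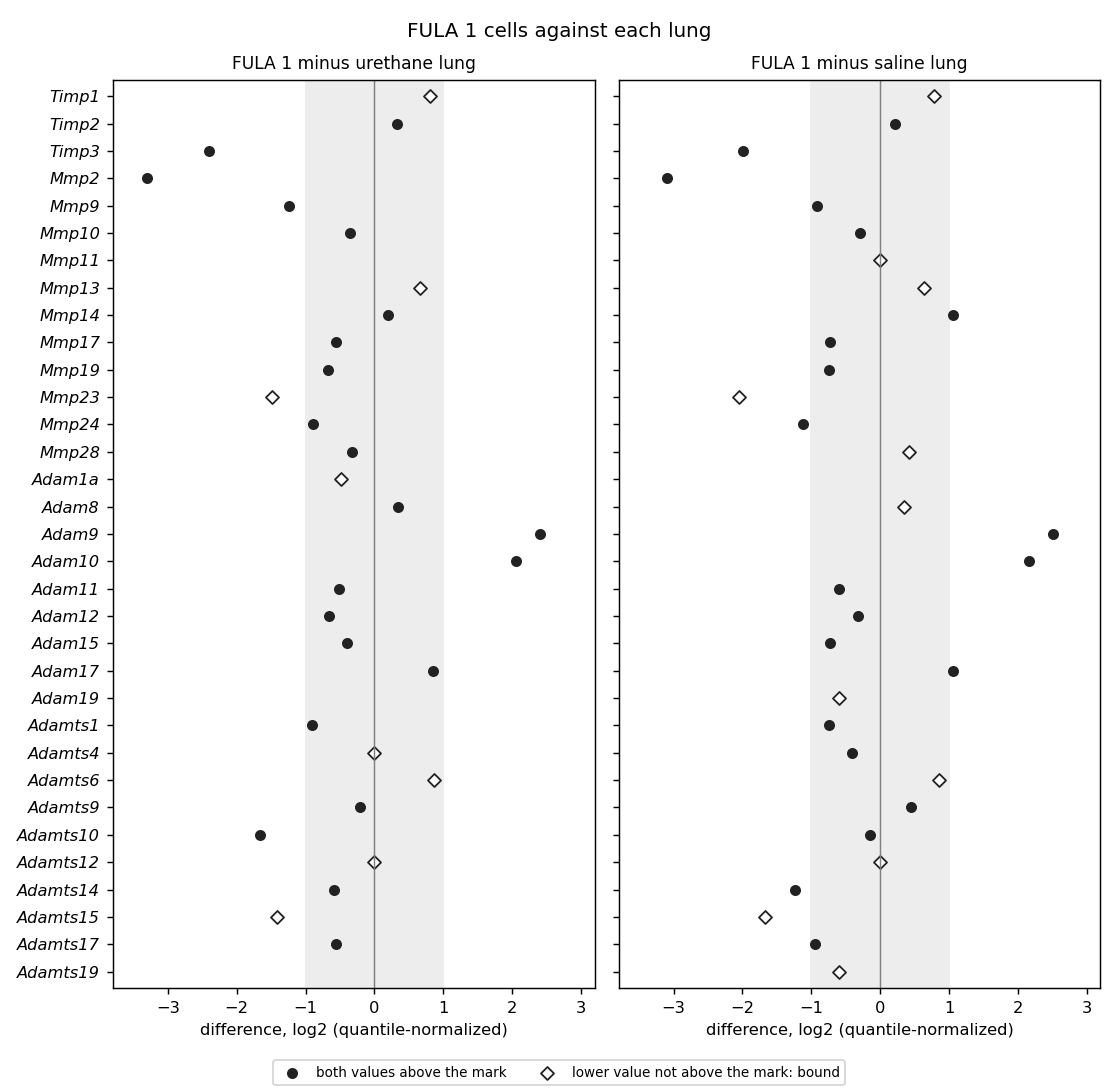
Difference on the log2 scale (horizontal axis) for FULA 1 minus urethane lung (left) and FULA 1 minus saline lung (right) in the genes above the background mark; filled circles have both levels above the mark, open diamonds are bounds, the grey band spans less than 2-fold, and a gene with no point had no level above the mark where its value was higher. Adam9 and Adam10 lie to the right of the band in both panels, and Mmp2, Timp3, Mmp23 and Adamts15 to its left; in the table as deposited Mmp2 and Timp3 lie above 0, where the median of all genes is 4.80 against saline lung and 3.69 against urethane lung.

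After quantile normalization no ADAMTS protease was called higher in FULA 1, whereas with a common median Adamts6, at 1.77 against urethane lung and 1.81 against saline lung, and Adamts9, at 1.31 against urethane lung and 1.996 against saline lung, were. Adamts6 was also called with FULA 1 quantiles, at 1.38 against urethane lung and 1.35 against saline lung. Adamts15, which cuts the proteoglycans aggrecan and versican, had levels of 1.60 on FULA 1, 3.37 on urethane lung and 3.63 on saline lung. It was at background in the line, lower by at least 2.65-fold against urethane lung and at least 3.17-fold against saline lung. With the 99th percentile mark it had no size against urethane lung. Adamts14, a procollagen N-proteinase that trims fibrillar procollagens, had levels of 2.09 on FULA 1, 2.68 on urethane lung and 3.33 on saline lung, with a difference of -0.58 against urethane lung, under 2-fold, and a call of -1.24 against saline lung. Its 2 probe sets gave -1.72 and -0.76 against saline lung, and -1.43 and 0.27 against urethane lung, and the call was lost with a common median, at -0.84.

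Adamts1, a versican-cutting protease, had levels of 3.72 on FULA 1 (percentile rank 79.8), 4.62 on urethane lung (88.1) and 4.47 on saline lung (87.0), and its differences, -0.90 against urethane lung and -0.75 against saline lung, were under 2-fold. The direction turned with a common median, at 0.54 against urethane lung and 0.73 against saline lung, and after lowess both were past 2-fold lower, at -1.23 against urethane lung and -1.19 against saline lung. Adamts9, which also cuts versican, had levels of 4.04 on FULA 1, 4.25 on urethane lung and 3.59 on saline lung. Adamts6, a protease of microfibrils related to Adamts10, was above the mark on FULA 1 alone, at 3.31, higher by at least 0.87 against urethane lung and 0.85 against saline lung. Adamts12 was also above the mark on FULA 1 alone, at 2.33. Adamts17 ranged over the arrays from 2.18 to 3.13, Adamts4 from 1.72 to 2.55, and Adamts19 passed the mark on saline lung alone, at 2.56.

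The members called lower in FULA 1 against both lungs were 4 of 77, Mmp2, Mmp23, Adamts15 and Timp3, where 7.89% of all genes were; in the table as deposited, both Mmp2 and Timp3 were above 0. Relative to the median of all genes in that table, Mmp2 stood at -2.62 against urethane lung and -2.49 against saline lung, and Timp3 at -0.60 against urethane lung and -0.58 against saline lung. Among stromal markers, after quantile normalization 4 of 5 fibroblast markers were called lower in FULA 1 against saline lung and 5 of 5 against urethane lung. All 4 smooth muscle markers were called lower against both lungs. Of 5 fibroblast markers, 3 were above the mark on FULA 1 and 5 on each lung, and their summed linear level was 32.3 on FULA 1, 343 on urethane lung and 318 on saline lung. Of 4 smooth muscle markers, 2 were above it on FULA 1 and 4 on each lung, with sums of 19.5 on FULA 1, 117 on urethane lung and 148 on saline lung. Dcn, a proteoglycan made by fibroblasts, was at background in the line, at 1.69, with 7.02 on urethane lung and 7.45 on saline lung. Pdgfra, another of the fibroblast markers, had levels of 3.86 on FULA 1, 5.15 on urethane lung and 4.16 on saline lung. It was called lower against urethane lung, at -1.29, but not against saline lung, at -0.30. The direction for Pdgfra depends on the scaling. As deposited it had 7.72 on FULA 1, 3.73 on urethane lung and 1.57 on saline lung. The column medians were 4.96, 1.22 and 0.08, so with a common median the line is not below either lung. The part of these markers in the result was not tested. Cell composition and culture cannot be told apart from tumour state with these samples.

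Between the lungs 1 of the 77 members passed 2-fold after quantile normalization. Adamts10 was called higher in urethane lung and 0 members were called lower; over all genes the shares were 1.15% higher and 0.428% lower. The median difference over the 77 members was 0.06, beside -0.06 over all genes. Of the 77 members, 28 had their higher level above the mark. In the table as deposited 20 members were over 2-fold higher in urethane lung and 0 lower, with a median over all genes of 1.09. Adamts10, which acts on fibrillin microfibrils, had levels of 4.10 on urethane lung (percentile rank 84.0) and 2.59 on saline lung (62.6), with 2.44 on FULA 1 (59.2). Urethane lung was the high one of the 3 arrays, 2.85-fold above saline lung, and FULA 1 was 3.17-fold below urethane lung. The FULA 1 call was lost with a common median, at -0.93. Adamts10 rested on 1 probe set, and with the mark at the 99th percentile of the olfactory receptors its difference from saline lung was at least 0.63, under 2-fold. The fibroblast markers summed to 343 on urethane lung and 318 on saline lung, the smooth muscle markers to 117 on urethane lung and 148 on saline lung, and the cardiac muscle markers to 49.9 on urethane lung and 95.6 on saline lung. Single fibroblast markers moved both ways and none was called. Pdgfra differed by 0.99, Col1a1 by 0.71, Col3a1 by 0.25, Col1a2 by -0.18 and Dcn by -0.43. The part of all these markers in the result was not tested.

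Next below the 2-fold line stood Mmp14, with 3.39 on urethane lung and 2.53 on saline lung, a difference of 0.87. Mmp28 differed by at least 0.74, and Adamts9 by 0.66, with 4.25 on urethane lung and 3.59 on saline lung. At the other end were Adamts14 at -0.65 and Mmp23 at -0.56. With FULA 1 quantiles Mmp14, at 1.37, and Mmp28, at 1.20, passed 2-fold higher in urethane lung, and Adamts14, at -1.09, passed it lower. The probe sets of Adamts14 differed by -0.29 and -1.02, so the size of its difference is not exact. Of the inhibitors, Timp3 differed by 0.40 and Timp2 by -0.11, and Timp1 was at background on both lungs. The gelatinases Mmp2, at 0.20, and Mmp9, at 0.32, and the sheddases Adam9, at 0.11, Adam10, at 0.10, and Adam17, at 0.20, were also under 2-fold.

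**Figure D4:**
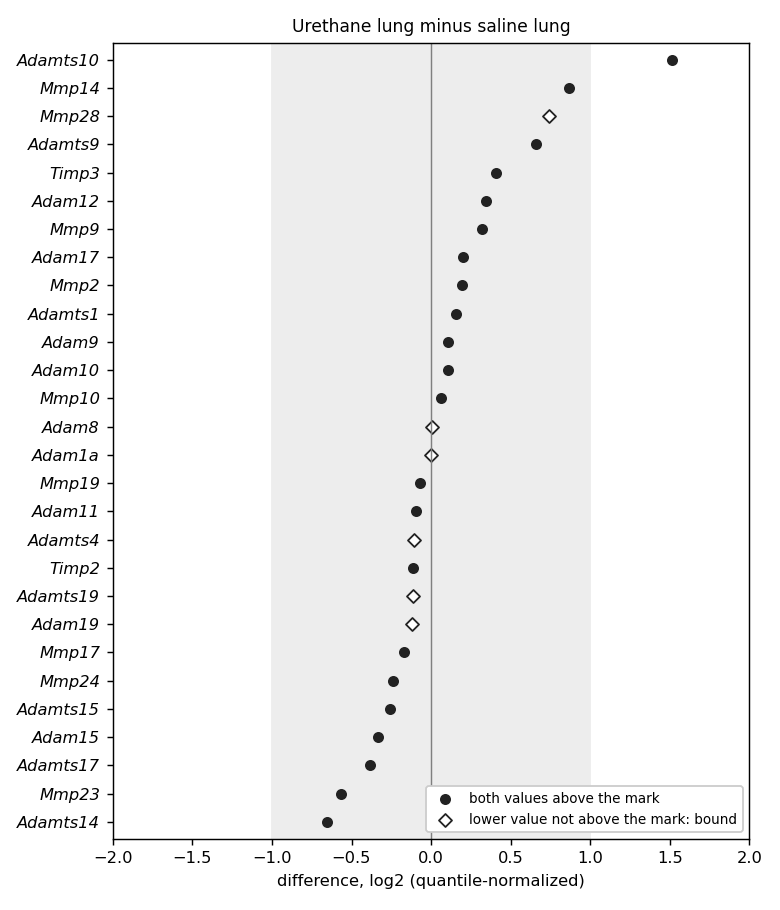
Difference on the log2 scale (horizontal axis) for urethane lung minus saline lung in the 28 members whose higher level was above the background mark, sorted by size; filled circles have both levels above the mark, open diamonds are bounds and the grey band spans less than 2-fold. Adamts10, at 1.51, is the single gene outside the band.

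Other genes that switch these proteases on, carry them or hold them back were read from a list of 29 symbols, of which 27 were measured. Calls of these 27 genes are given after quantile normalization alone. Of the 27, 4 were called higher and 1 lower in FULA 1 against saline lung, where 10.8% and 11.2% of all genes were. Against urethane lung 3 were called higher and 3 lower in FULA 1, where 10.4% and 9.73% of all genes were, and between the lungs 2 were called higher and 0 lower in urethane lung, where 1.15% and 0.428% of all genes were. Of the 7 activating proteases, Plat, the tissue plasminogen activator, had levels of 6.79 on FULA 1, 3.36 on urethane lung and 3.21 on saline lung. The line was higher by 3.42 against urethane lung and 3.57 against saline lung. Plaur, the urokinase receptor that focuses plasmin at the cell surface, had levels of 6.18 on FULA 1, 3.21 on urethane lung and 3.71 on saline lung, with differences of 2.97 against urethane lung and 2.46 against saline lung. Furin, which removes the propeptide of Mmp14 and of most ADAMs, had levels of 5.37 on FULA 1, 4.67 on urethane lung and 3.70 on saline lung, with a call of 1.67 against saline lung. Pcsk6, a relative of furin, had levels of 4.39 on FULA 1, 2.78 on urethane lung and 1.88 on saline lung and was called in both FULA 1 comparisons, at 1.61 against urethane lung and at least 1.93 against saline lung, where it was at background.

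Of the 3 further inhibitors measured, A2m and Tfpi2 were at background on all arrays. Reck, a membrane-anchored inhibitor of several MMPs, had levels of 2.43 on FULA 1, 3.98 on urethane lung and 3.35 on saline lung, with a call of -1.55 against urethane lung and a difference of -0.92 against saline lung, under 2-fold. Among partners and receptors of these proteases, 10 of 11 were above the mark on all arrays. Tspan14, a tetraspanin that carries Adam10 to the surface, had levels of 5.44 on FULA 1, 5.44 on urethane lung and 5.59 on saline lung. Tspan17, of the same group, had levels of 5.01 on FULA 1, 6.24 on urethane lung and 5.87 on saline lung, with a call of -1.23 against urethane lung. This call depends on the scaling. As deposited Tspan17 had 8.95 on FULA 1 and 4.72 on urethane lung, beside column medians of 4.96 and 1.22. With a common median the line is therefore not below urethane lung. Rhbdf1, a partner of Adam17 maturation, had levels of 5.06 on urethane lung and 3.90 on saline lung, a call of 1.17. Pcsk7 was the other gene of the list called in urethane lung, at 3.79, against a level at background of 2.01 on saline lung, a bound of 1.32. Adamtsl2, an ADAMTS-like protein of microfibrils with no protease domain, had levels of 2.07 on FULA 1, 3.93 on urethane lung and 3.92 on saline lung, with a difference of -1.86 against each.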

How the data were processed

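Biotin-labelled total RNA, prepared by Trizol extraction and column purification, was measured, per the labels' protocols. The authors deposited log2 values for 41345 probe sets on each of the 3 arrays. Per the submitters' processing notes RMA was used, and the design text names GeneSpring GX 12.5. How the background was set, which arrays were normalized together and the build of the annotation are unknown, as are the scale and centring behind the unequal column medians.

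Values equal to 5 decimals were ties, and each array was set to the mean of the sorted columns. Of the probe sets, 23521 carried 1 symbol, and 23328 of these matched the RefSeq table (GRCm38.p6) by Entrez identifier. A gene's level is the mean of its probe sets, and 71 of the 77 members had 1. Promoter sequences are RefSeq's (GRCm38.p6).

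By rule, values on all arrays were given for members called in a comparison, the 4 Timp genes, Adam10, Adam17 and the 5 members of highest level on each array, and other members by range or count. Further members and Tspan14 were given with values, and the windows printed were picked, after their values were seen. The members and lists were chosen with earlier results of these data known. The alternatives were other scalings (lowess span 0.3), fold thresholds of 1.5 and 4, a 99th percentile mark, no bound, and the probe set of highest mean. The steps were tested on simulated data. The number of arrays limits the precision. Python 3.11.15, numpy 2.4.6, pandas 2.3.3, scipy 1.17.1 and statsmodels 0.14.6 were used.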

Additional observations from a re-analysis of the deposited data

How the results depend on the processing

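No paired analysis was possible because each group has 1 array, and no array could be left out. Counts of members are given as higher and lower for FULA 1 against saline lung, FULA 1 against urethane lung, and urethane lung against saline lung, where the values reported are 4 and 6, 2 and 6, and 1 and 0. They were 7 and 15, 6 and 10, and 4 and 1 at 1.5-fold; 2 and 2, 2 and 2, and 0 and 0 at 4-fold. With the mark at the 99th percentile they were 2 and 4, 2 and 3, and 0 and 0, and without bounds 6 and 7, 5 and 6, and 1 and 0. With FULA 1 quantiles for every array they were 7 and 13, 6 and 10, and 3 and 1. With each array shifted to a common median they were 11 and 3, 9 and 3, and 1 and 0, and after lowess 2 and 8, 2 and 7, and 1 and 0. As deposited they were 28 and 0, 28 and 0, and 20 and 0. The probe set of highest mean gave 4 and 7, 2 and 7, and 1 and 0. The stricter mark left 14 members above it on FULA 1, 10 on urethane lung and 10 on saline lung, in place of 28, 25 and 25. As deposited, the median of all genes was 4.80 for FULA 1 minus saline lung and 3.69 for FULA 1 minus urethane lung, so the 8 called differences below 0 in members with both levels above the mark turned positive there, all smaller than that median, as did many uncalled ones. Against saline lung these were Mmp2 at 2.31, Timp3 at 4.22, Adamts14 at 4.05 and Mmp24 at 4.34, and against urethane lung Mmp2 at 1.07, Timp3 at 3.09, Mmp9 at 2.76 and Adamts10 at 2.81. Adam9 and Adam10 stayed past 2-fold higher against both lungs with a common median, with FULA 1 quantiles, after lowess and with the other probe set rule, and so did Adamts10 between the lungs. Why the other counts moved was not tested. Timp3 did not reach 2-fold with a common median, at -0.67 against saline lung and -0.65 against urethane lung. Signal near background and the ties on the lung arrays limit the low values.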

Other observations

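Probe sets that carry several symbols were kept out of the counts. One of them, annotated to Mmp24 and BC029722 together, stood at percentile rank 83.4 on FULA 1, 82.1 on urethane lung and 86.2 on saline lung. The probe set with the Mmp24 symbol alone stood at 54.1 on FULA 1, 71.9 on urethane lung and 75.4 on saline lung. Both probe sets annotated to Adam34 and Gm5347 were at background on all arrays.

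Of the 6 members with 2 probe sets each, 3 are described here, chosen after their values were seen. For Mmp7, whose mean was at background on all arrays, the probe sets had 2.58 and 2.17 on urethane lung and 1.74 and 1.88 on saline lung, so 1 of the pair passed the mark of 2.44 on urethane lung. For Adamts8 the pair had 1.42 and 2.62 on urethane lung and 1.82 and 2.30 on saline lung. For Mmp11 the differences of the pair had opposite signs against both lungs, at -0.83 and 0.45 against urethane lung and -0.25 and 0.43 against saline lung.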
